A study of Mus musculus with 2 samples.

Results

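AP-1 is a family of dimeric transcription factors, and 10 genes for its subunits and close relatives were compared here between 2 mouse mammary carcinoma cell populations. The genes were chosen by name, with earlier results of these data known, out of 18193 genes with a probe set annotated to them alone. They were Fos, Fosb, Fosl1, Fosl2, Jun, Junb, Jund, Atf3, Maff and Mafk. All 10 were found, with 14 probe sets, and each probe set is described apart. One array held RNA of 4T1 parental cells, a line derived from BALB/c mouse mammary carcinoma. The other held RNA of the 4T1-3R liver metastatic population (4T1-3R_L), which per the labels came out of an in vivo experiment as liver metastases; no treatment or engineered allele is named for either. Both were cultured before RNA extraction. Only the label of the metastatic cells carries the name 3R. What that name marks cannot be told apart from the liver origin in this comparison. The sources used here do not give how many mice or clones stand behind the 4T1-3R_L cells. Each population has 1 array and no replicate, which leaves no spread to test against: all values describe these 2 arrays alone.

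AP-1 subunits share a basic region that contacts DNA and a leucine zipper that pairs them. Jun proteins pair with each other or with Fos proteins, while Fos proteins need a partner, and the dimers bind the TPA response element (TRE) or the related cyclic AMP response element (CRE). Atf3 binds CRE-like sites and is a stress-induced relative. Maff and Mafk are small MAF proteins that carry no activation domain of their own and pair mainly with CNC factors such as Nfe2l2 or Bach1. Many of these genes are immediate early genes, transcribed within minutes of growth factor, stress or adhesion signals relayed by MAP kinases. In carcinoma cells AP-1 is known for its part in invasion and in the transcription of matrix proteases.

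Promoter sequences are shown for Jun and Mafk, which had higher signals in 4T1-3R_L cells, and for Junb, which had the lower signal. They let exact matches to the motifs searched, of AP-1 and of other factors, be seen beside the values. Of the windows printed, only that of Jun held an AP-1 type match, a variant TRE. The capitals in the Mafk window are SP1 sites and an E-box. Promoter windows of 9 of the 10 genes, 11 windows in all, matched the RefSeq table of build GRCm38.p6; Fosl1 is named only. Each is the 250 bases before an annotated start, 5′ to 3′ on the gene's strand. Capitals mark matches to the motifs searched on both strands, which were the TRE TGACTCA, the CRE TGACGTCA, a variant TRE TGACATCA known from the Jun promoter, the MAF element TGCTGAC, the SP1 site GGGCGG, the E-box CACGTG and the CArG box. The last bases of the MAF element are the first bases of the TRE, so these can overlap. The windows lie at chr4:95052223-95052472 on the minus strand for Jun, at chr8:84978749-84978998 on the minus strand for Junb and at chr5:139791286-139791535 on the plus strand for Mafk.
Jun: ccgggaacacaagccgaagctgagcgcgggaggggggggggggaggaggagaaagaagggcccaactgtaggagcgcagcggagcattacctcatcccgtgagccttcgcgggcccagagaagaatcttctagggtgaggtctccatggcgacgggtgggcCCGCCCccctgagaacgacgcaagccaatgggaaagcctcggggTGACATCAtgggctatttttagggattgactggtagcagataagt
Junb: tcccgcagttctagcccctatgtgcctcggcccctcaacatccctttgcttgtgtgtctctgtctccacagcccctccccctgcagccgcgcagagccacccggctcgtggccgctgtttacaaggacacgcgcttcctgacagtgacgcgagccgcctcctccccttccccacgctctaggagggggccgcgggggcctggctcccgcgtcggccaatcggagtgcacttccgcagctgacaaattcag
Mafk: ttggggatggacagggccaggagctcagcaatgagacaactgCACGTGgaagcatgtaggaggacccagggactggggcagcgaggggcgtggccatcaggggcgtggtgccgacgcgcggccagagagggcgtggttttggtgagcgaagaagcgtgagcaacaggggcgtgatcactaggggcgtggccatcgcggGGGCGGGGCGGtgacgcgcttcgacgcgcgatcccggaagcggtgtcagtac

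The variant TRE lay 45 to 38 bases before the Jun start, and the same letters occurred in 1 of the 3 Maff windows. Another Maff window held the CRE. These matches are shown with the bases around them, since they were the only exact matches to the CRE, the TRE or its variant in the members' windows. Sites of these types with other letters were not searched for, so the windows may hold more of them. The Maff stretches lie on the plus strand at chr15:79347480-79347509 and chr15:79348346-79348375, and the Jun stretch on the minus strand at chr4:95052249-95052278.
Jun, variant TRE: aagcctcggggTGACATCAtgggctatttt
Maff, CRE: ggctggggcggTGACGTCActgcatgactg
Maff, variant TRE: ctggagccatgTGACATCAgtgtttgttcc

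Of all 32851 windows of that length, 2.93% held the variant TRE, 1.55% the CRE, 4.46% the TRE, 3.81% the MAF element, 1.47% the CArG box, 6.02% the E-box and 32.7% the SP1 site. Among the 11 members' windows the variant TRE was found in 2, the CRE in 1, the E-box in 2 (Maff and Mafk) and the SP1 site in 8, while the TRE, the MAF element and the CArG box were found in 0. The SP1 site was in windows of Atf3, Fos, Fosb, Fosl2, Jun, Maff and Mafk, with more than 1 window of Maff. It is made of G and C alone, and the members' windows held up to 68.8% G and C (Fosb). All but that of Jund (47.6%) and 1 of Maff (48.0%) were above the median of all windows, 52.4%. The SP1 counts were not adjusted for this. The Junb window held none of the motifs. A match is a stretch of letters and says nothing about binding in these cells. Sites outside these windows were not searched for, so a count of 0 does not mean that a gene lacks the site.

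Signals are MAS5 probe set intensities on a linear scale. A floor of 90.6, the median of all signals, stood in for background, since the sources used here give no detection calls. A probe set counts as measured where at least 1 array reached the floor. The log2 ratio is 4T1-3R_L over parental, and a log2 ratio of 1 or more in size is called at least 2-fold. Signals of different probe sets are not compared with each other.

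Of the 14 AP-1 probe sets 13 were measured, and 6 of these (46.2%) were higher by 2-fold or more on the 4T1-3R_L array, against 5.69% of all 20463 measured probe sets. They belonged to Fosl1 and Jun, each counted by both of its probe sets, and to Maff and Mafk. One (7.69%), that of Junb, was at least 2-fold lower, against 4.74%, and a count of 1 is too small to read against that background. The other 6 lay between. With each gene taken by its probe set of highest mean log2 signal, 4 of 10 genes were at least 2-fold higher (6.23% of 11135 measured genes) and 1 was at least 2-fold lower (4.48%). The median log2 ratio was 0.86 over the 10 genes and -0.01 over all measured genes. The members were chosen with earlier results of these data known, so these shares and medians describe the list and are no test of it. In RNA of a whole culture, fewer cells with a transcript and less of it per cell cannot be told apart.

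**Figure D1:**
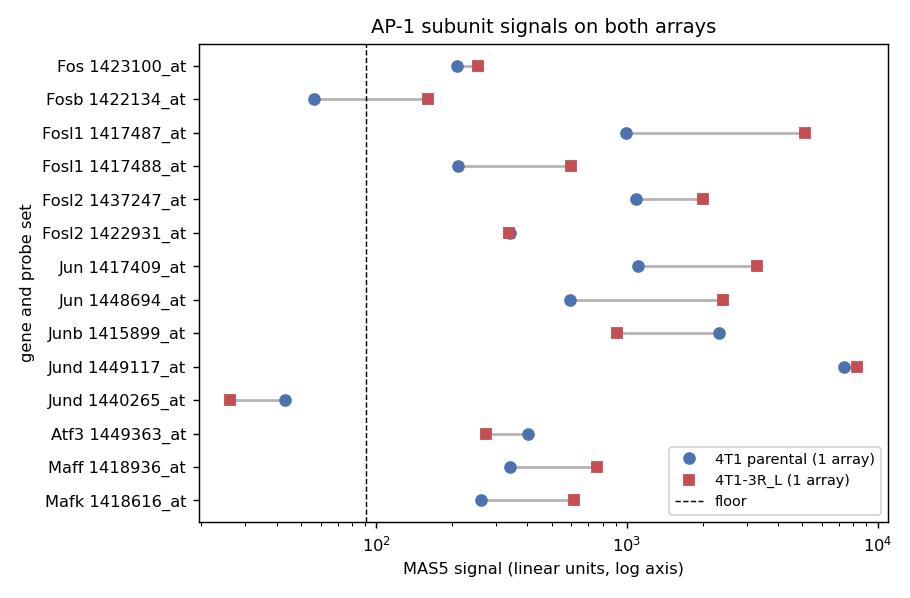
MAS5 signal (log axis) of each AP-1 probe set on the 4T1 parental array (circles) and the 4T1-3R_L array (squares), with a line joining the pair and the floor of 90.6 dashed. Both Fosl1 and both Jun probe sets, Maff and Mafk have the square at least 2-fold to the right, Junb has it to the left, and 1 Jund probe set lies under the floor on both arrays.

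Among the Fos proteins, Fosl1 had the largest difference of the 10 genes. Fosl1 encodes FRA-1, a Fos protein that lacks the strong activation domain of Fos and is linked to migration of carcinoma cells. Its probe set 1417487_at had a signal of 993.5 in parental and 5104.8 in 4T1-3R_L cells, 5.14-fold higher (log2 ratio 2.36). Of all measured probe sets, 88 (0.43%) had a log2 ratio at least as high. Its other probe set, 1417488_at, went from 212.5 to 598.2, which is 2.82-fold higher (log2 ratio 1.49). Both probe sets of Fosl1 therefore gave a higher signal in 4T1-3R_L cells, with a gap of 0.87 between their log2 ratios.

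Fosl2, encoding the related FRA-2, gave different readings on its probe sets. Probe set 1437247_at read 1088.0 in parental and 2000.9 in 4T1-3R_L cells (log2 ratio 0.88), just short of 2-fold. Probe set 1422931_at read 342.7 and 339.0 (log2 ratio -0.02). The data thus do not give Fosl2 a single ratio.

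Fos and Fosb, the Fos proteins with a strong activation domain that are induced briefly after stimulation, were both short of 2-fold. The Fos probe set read 210.4 in parental and 254.1 in 4T1-3R_L cells, a log2 ratio of 0.27, and 29.7% of measured probe sets had a ratio at least as high. Fosb read 56.5 in parental cells, under the floor, and 161.2 in 4T1-3R_L cells, so that it was at least 1.78-fold higher (log2 ratio 0.83 against the floor). With a floor at the 40th percentile of all signals its log2 ratio was 1.51, whereas at the 60th percentile Fosb lay under the floor on both arrays. Whether Fosb passes 2-fold therefore depends on where the floor is set.

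Jun, which like the other Jun proteins can pair with a Jun or a Fos protein, was higher on both of its probe sets. Probe set 1417409_at read 1107.3 in parental and 3295.0 in 4T1-3R_L cells, 2.98-fold higher (log2 ratio 1.57). Probe set 1448694_at read 590.5 and 2422.7, 4.10-fold higher (log2 ratio 2.04), a ratio reached by 151 (0.738%) of measured probe sets. The gap of 0.46 between them was smaller than for Fosl1. Junos, a long non-coding RNA gene that runs the opposite way from Jun, has several annotated starts. The nearest lies 94 bases from the Jun start, within the Jun window printed above, and the others 13150 to 95263 bases away, and no source used here tells which of them its probe set reads. The Junos probe set read 76.6 in parental cells, under the floor, and 767.9 in 4T1-3R_L cells, at least 8.48-fold higher. Junos was not among the members or lists, and its ratio was not recomputed under the other settings.

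Junb, a Jun protein that activates transcription more weakly than Jun and can restrain it, went the other way. Its single probe set read 2327.4 in parental and 910.8 in 4T1-3R_L cells, 2.56-fold lower (log2 ratio -1.35), and 337 (1.65%) of measured probe sets had a ratio as low or lower. Jund, the Jun protein expressed in most cells without stimulation, read 7326.7 and 8244.6 on probe set 1449117_at (log2 ratio 0.17). Its other probe set, 1440265_at, was under the floor on both arrays, at 43.4 and 26.1, and has no ratio. The Jun genes thus differed among themselves, with Jun higher, Junb lower and Jund within 1.13-fold on its measured probe set.

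Atf3, induced by many stresses, read 401.2 in parental and 272.8 in 4T1-3R_L cells, a log2 ratio of -0.56 and short of 2-fold. The small MAF genes were both higher. Maff read 340.2 and 757.3, 2.23-fold higher (log2 ratio 1.15), and Mafk read 261.0 and 614.1, 2.35-fold higher (log2 ratio 1.23). Ratios at least as high were seen in 4.04% and 3.36% of measured probe sets. Each of these 3 genes had 1 probe set, so no second reading exists for them.

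**Figure D2:**
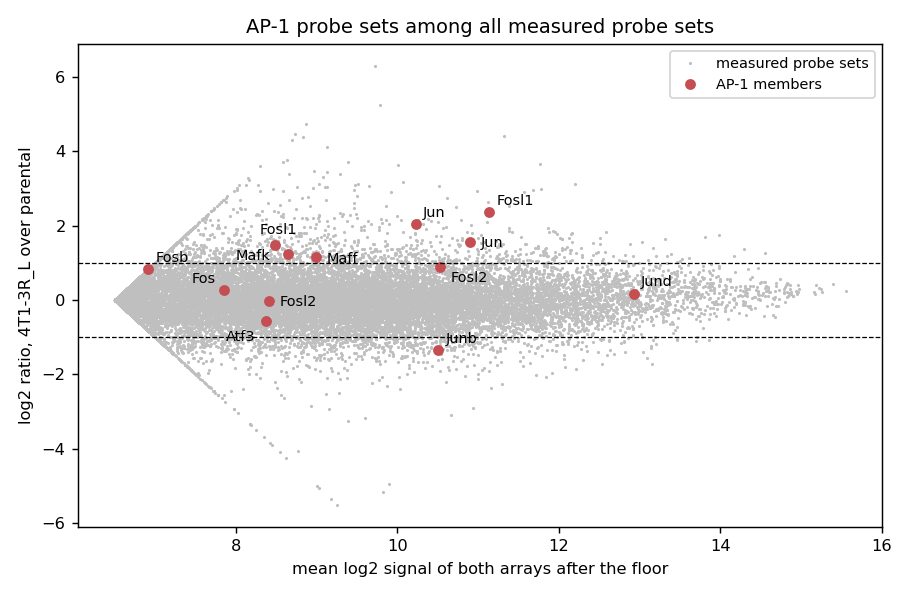
Log2 ratio (4T1-3R_L over parental) against the mean log2 signal of both arrays for all 20463 measured probe sets (grey) and the 13 measured AP-1 probe sets (red, named), with 2-fold dashed. The brighter Fosl1 probe set at 2.36 and Jun at 2.04 and 1.57 stand above most grey points of like signal, while Fos, Jund, Atf3 and the dimmer Fosl2 probe set lie inside the dense band.

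How far probe sets of the same gene differ in their ratios was gauged from genes with several probe sets. A shift shared by all probe sets of an array, such as its scaling, cancels in this gap. A spread between cultures does not enter it either, so the gap is not the full error of a ratio. Over 4737 genes with 2 probe sets that reached the floor on each array, the log2 ratios of the pair differed by a median of 0.35, and by up to 0.85 in 90% of genes. The pair shared its sign in 69.1% of genes. The gap of Jun was at least as large as that of 63.5% of these genes. For Fosl1 and Fosl2 the shares were 90.7% and 91.6%, so their probe sets agreed less well than those of most genes. The ratios of Fosl1 (1.49 and 2.36), Jun (1.57 and 2.04) and Junb (-1.35) were larger than 0.85 in size. So were those of Maff (1.15), Mafk (1.23) and the brighter Fosl2 probe set (0.88), by less.

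Differences of 2-fold were also set against probe sets of similar brightness, within 0.5 of the member's mean log2 signal. Around the brighter Fosl1 probe set 5.04% of 2141 such probe sets were at least 2-fold higher, around the Jun probe sets 4.59% and 4.46%, around Maff 6.59% and around Mafk 6.85%. Around Junb 5.72% of 2883 were at least 2-fold lower. These shares are close to those over all measured probe sets.

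The scaling of the arrays bears on these counts. Hybridisation controls, labelled bacterial and phage RNAs that are added to each array, were higher on the 4T1-3R_L array by a median log2 ratio of 0.57. Scaling to them lowers the log2 ratio of a probe set above the floor on both arrays by that amount, lowers a ratio taken against the floor by less (Fosb from 0.83 to 0.54), and moves the median measured gene to -0.54. Then 3 probe sets (23.1%) were at least 2-fold higher, both of Jun and the brighter one of Fosl1, against 1.81% of all measured probe sets. Those of Junb and Atf3 (15.4%) were at least 2-fold lower, against 20.9%. By gene, 2 of 10 were higher (2.21% of all) and 2 of 10 lower (20.2%), the latter close to the background. Under that scaling Maff (0.58), Mafk (0.66) and the dimmer Fosl1 probe set (0.92) came under 2-fold. Fos and Jund turned from 0.27 and 0.17 to -0.30 and -0.40. Poly-A controls, bacterial transcripts that are added to the RNA before labelling, stood further apart: 14 of them were higher on the 4T1-3R_L array by a median log2 ratio of 1.22, ranging from 0.57 to 1.51. Scaling to these was added as a setting after the values were seen, and it moves the median measured gene to -1.12.

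With the poly-A scaling 1 AP-1 probe set, the brighter one of Fosl1 (1.14), was at least 2-fold higher, against 0.62% of all measured probe sets. Those of Junb (-2.57), Atf3 (-1.78) and Jund (-1.05) and the dimmer one of Fosl2 (-1.24) were at least 2-fold lower, against 55.8%. By gene, 1 of 10 was higher (0.832% of all) and 3 of 10 lower (57.2%). Jun came under 2-fold on both probe sets (0.35 and 0.82), as did the dimmer Fosl1 probe set (0.27). Mafk was at 0.01 and Maff at -0.07, so that the higher signal of these small MAF genes does not hold under this scaling. Fosl1 and Jun were higher, and Junb lower, under each of the 8 settings tried. Which scaling matches the RNA content of the cells was not tested.

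**Figure D3:**
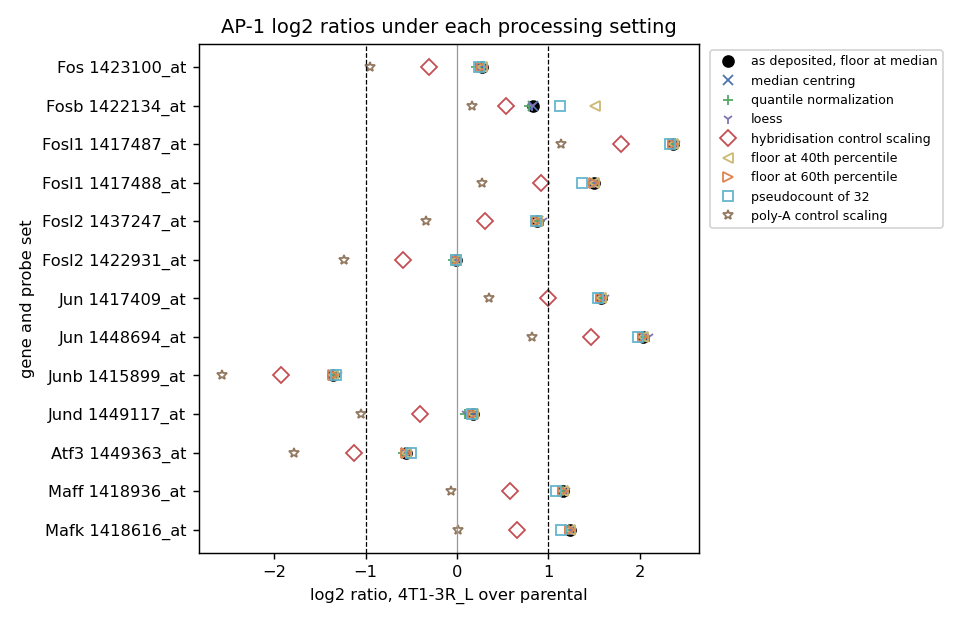
Log2 ratio of each measured AP-1 probe set as deposited with the floor at the median (filled circles) and under 8 other settings (open and line symbols), with 2-fold dashed. All settings but the scalings to hybridisation controls (diamonds) and poly-A controls (stars) nearly coincide except for Fosb; Fos and Jund fall below 0 under both, and under the stars Maff lies at -0.07 and of the higher probe sets only the brighter one of Fosl1 stays past 2-fold.

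Other facts of the arrays were as follows. The median signal was 87.4 on the parental and 93.3 on the 4T1-3R_L array. The 3′ to 5′ signal ratio, a sign of RNA integrity and labelling, was 1.22 and 1.59 for Actb and 0.789 and 1.02 for Gapdh, higher on the 4T1-3R_L array in both; its part in the results was not tested. Epithelial markers Krt8, Krt18, Krt7, Krt19, Epcam and Cdh1 were above the floor on both arrays. Of the 7 measured epithelial markers 6 were lower in 4T1-3R_L cells, and Krt8 was higher (log2 ratio 0.22). The median log2 ratio of the list was -0.76, with Cdh1 at -0.99 and Krt19 at -0.76. Krt14 was 31.2-fold lower in 4T1-3R_L cells, Epcam was 4.24-fold lower on the probe set read here but short of 2-fold on its next (log2 ratio -0.59), and Muc1, Krt5 and Trp63 were under the floor on both arrays. Of 8 hepatocyte and 6 endothelial markers 0 reached the floor, with summed signals of 157.8 and 157.2 for hepatocytes and 182.2 and 175.4 for endothelium. Of 9 fibroblast and stellate cell markers 2 did (Acta2 and Des, summed signal of the list 537.2 and 366.2), and Col1a1, Col1a2 and Col3a1 did not. Of 10 leukocyte markers 2 did (Cd68 and Csf1r, summed signal of the list 1683.9 and 708.4), and Ptprc did not. For Csf1r the 4T1-3R_L signal was lower by at least 11.3-fold. What these markers have to do with the AP-1 values was not tested.

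The genes around AP-1 were read from 6 lists, each gene by its probe set of highest mean log2 signal. The counts as deposited stand beside 6.23% higher and 4.48% lower among all measured genes. With the poly-A scaling, Mmp3 was the only gene of these lists at least 2-fold higher. Of the genes called higher as deposited, Mmp14 (-0.09), Vegfa (-0.11) and Klf4 (-0.22) turned to lower. Positive ratios under 1.22 of genes above the floor on both arrays also fell below 0. At least 2-fold lower were then 13 kinases, 13 immediate early genes, 7 targets and 7 dimer partners. So were 5 factors and turnover enzymes of Fos and Jun and 3 MAF or CNC genes. Among all measured genes 57.2% were lower by as much. The counts as deposited below are to be read with that. MAP kinases and their upstream kinases, which phosphorylate Jun and Fos or the factors that transcribe them, lay near the median gene. Of the 20 kinases measured, 1 was at least 2-fold higher and 0 lower, with a median log2 ratio of -0.13. Scaled to the hybridisation controls, 1 was higher and 4 lower, against 2.21% and 20.2% of all measured genes. Quantile normalization and loess each gave 2 higher. The 1 was the stress kinase Map3k5 (914.8 and 2915.1, 3.19-fold; log2 ratio 0.95 on its next probe set). Next in size were Map3k2 (log2 ratio 0.99), Map3k7 (0.89, but -0.45 on its next probe set) and Map3k1 (0.68), all upstream kinases. The JNK genes Mapk8 and Mapk9 had log2 ratios of -0.13 and -0.41. Some kinases of the list were not analysed here.

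Factors that transcribe Fos and Jun and enzymes of their turnover had a median log2 ratio of 0.36 over 14 measured genes, with 1 at least 2-fold higher and 0 lower. This was Mef2c, a MADS-box factor, under the floor in parental cells at 70.9 and at 219.2 in 4T1-3R_L cells (at least 2.42-fold), which came under 2-fold in the hybridisation control scaling (log2 ratio 0.98), under the higher floor at the 60th percentile (0.38) and as the median of its probe sets (0.73). Mef2d, Mef2a and Srf, the serum response factor, followed with log2 ratios of 0.57, 0.51 and 0.48, but their next probe sets read -0.16, 0.49 and -0.39. The ubiquitin ligase genes Cop1 (-0.27), Fbxw7 (0.23) and Itch (0.32), whose products mark Jun for breakdown, lay between.

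Other dimer partners of Jun and Fos had a median log2 ratio of 0.17 over 15 measured genes, with 1 at least 2-fold higher and 0 lower. Creb5, a CRE-binding partner of Jun, was 3.49-fold higher (236.1 and 824.5; log2 ratio 0.77 on its next probe set). Next were the stress factor Atf6 (0.77, and 1.02 on its next probe set), Jdp2, a repressor that pairs with Jun (0.73), and Crem (0.63). Atf2 and Atf4 were at 0.04 and -0.26, but the next probe set of Atf4 read 0.37. Batf was under the floor on both arrays.

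The small MAF partners were read from the MAF and CNC list. Of its 7 measured genes 1 was at least 2-fold higher and 0 lower, with a median log2 ratio of 0.34. The 1 was Bach2, a CNC repressor, 2.98-fold higher (103.3, close to the floor, and 307.4; log2 ratio 0.52 on its next probe set, and 0.86 under the higher floor). Nfe2l3, Nfe2l2 and its inhibitor Keap1 had log2 ratios of 0.58, 0.57 and 0.34, but the next probe set of Keap1 read -0.21. The third small MAF gene, Mafg, read 1275.5 and 1060.4 (-0.27), unlike Maff and Mafk. Maf, Nrl and Nfe2 were under the floor on both arrays.

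Genes described as AP-1 targets differed in both directions. Of its 26 measured genes this list had 8 higher and 3 lower by 2-fold or more, with a median log2 ratio of 0.59. The stromelysins Mmp3 (21.4-fold) and Mmp10 (4.40-fold, from 317.6 to 1397.5) were furthest apart among the higher ones. The others were the EGF receptor ligand Hbegf (2.84-fold), the chromatin protein Hmga2 (2.66-fold), the hyaluronan receptor Cd44 (2.35-fold), Vegfd (at least 2.35-fold), the membrane protease Mmp14 (2.19-fold) and Vegfa (2.16-fold). Lower were the chemokine Ccl2 (at least 7.69-fold), the gelatinase Mmp9 (3.45-fold) and the heme oxygenase Hmox1 (2.12-fold). The collagenase Mmp13 (0.99), Tgfb1 (0.91) and the coagulation factor gene F3 (-0.84) were short of 2-fold. The next probe sets of Tgfb1, Vegfa, Mmp14 and Cd44 read -0.42, 0.07, 0.75 and 0.91. Under the higher floor Vegfd (0.33) and Hmox1 (-0.93) were also short of 2-fold. Scaled to the hybridisation controls, 2 of these genes, Mmp3 and Mmp10, were at least 2-fold higher and 4 lower. Of all measured genes 2.21% were higher and 20.2% lower under that scaling. The median of the list then exceeded that of all genes by 0.63, compared with 0.60 as deposited. Many of these genes also answer to other factors, and nothing here links their signals to AP-1.

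Immediate early genes outside AP-1, which the same signals induce, had a median log2 ratio of 0.29 over 26 measured genes, with 7 at least 2-fold higher and 2 lower. Scaled to the hybridisation controls, 5 were higher and 5 lower, against 2.21% and 20.2% of all measured genes. The higher ones were Egr1 (4.35-fold), Dusp6 (3.54-fold), Nr4a2 (3.13-fold, from 159.0 to 497.0), Dusp1 (2.95-fold, from 344.5 to 1015.1), Klf2 (at least 2.89-fold), Egr2 (at least 2.50-fold) and Klf4 (2.005-fold). Egr1, Egr2, Klf2, Klf4 and Nr4a2 encode transcription factors, and Dusp1 and Dusp6 encode phosphatases that switch off MAP kinases. The growth arrest gene Gadd45b (2.99-fold, from 2601.0 to 870.5) and Myc (2.16-fold) were lower. Egr2 (0.42) and Klf2 (0.63) dropped below 2-fold under the higher floor. So did Dusp1 (0.99) and Klf4 (0.43) in the hybridisation control scaling, and Nr4a2 (0.80) as the median of its probe sets. The next probe set of Egr2 read 0.89, also short of 2-fold. Btg2 (-0.89, with 4T1-3R_L under the floor), Dusp5 (0.87) and Klf10 (0.84) were short of 2-fold. Ier2 (-0.38), Zfp36 (0.04) and Nr4a1 (0.18), which are induced quickly along with Fos, lay on either side of 0. Immediate early genes thus did not move as 1 block on these arrays.

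**Figure D4:**
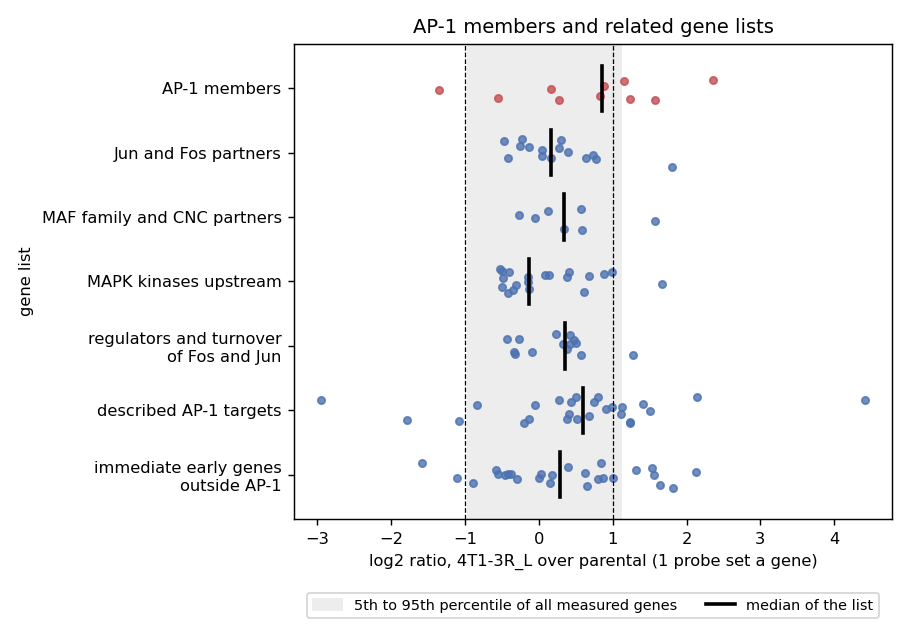
Log2 ratio (4T1-3R_L over parental) of each measured gene of the AP-1 members (red) and the 6 related lists (blue), with list medians as black bars, 2-fold dashed and the 5th to 95th percentile of all measured genes, -0.96 to 1.12, in grey. The AP-1 median of 0.86 and the target median of 0.59 lie to the right of the MAPK median of -0.13, and points outside the grey band occur on both sides for members, targets and immediate early genes.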

How the data were processed

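The deposited values are probe set intensity values on a linear scale for 45101 probe sets, made with MAS5 according to the submitters' processing notes; its version and scaling target and the genome build are not named in the sources used here. After trimming 2% at each end the mean was 500.003 on both arrays. The platform annotation gave 1 symbol for 34945 probe sets other than the 64 controls and several for 932; 34741 matched the RefSeq table of GRCm38.p6 by Entrez identifier and 0 needed a new symbol. Only probe sets with 1 symbol were used. Low signals were set to the floor before log2. No array was replicated, so the fold of 2 is a size and not a test, and no depth applies. The alternatives were median centring, quantile normalization, loess (statsmodels 0.14.6, span 0.3), scaling to 15 hybridisation controls or (added after the values were seen) 14 poly-A controls, floors at the 40th and 60th percentile, a pseudocount of 32, and, by gene, the median over probe sets or plain _at probe sets. Named from each list were all genes at least 2-fold apart and up to 3 others of the largest ratio; Mapk8, Mapk9, Cop1, Fbxw7, Itch, Atf2, Atf4, Mafg, Ier2, Zfp36 and Nr4a1 were added after their values were seen. Members and lists were chosen with earlier results of these data known. Junos, in neither, was named as a neighbour of Jun outside the plan. Steps were tested on simulated data (Python 3.11.15).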

Additional observations from a re-analysis of the deposited data

How the results depend on the processing

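Scaling to the hybridisation controls gave 3 AP-1 probe sets and 2 genes at least 2-fold higher, and 2 probe sets and 2 genes at least 2-fold lower, in place of 6, 4, 1 and 1; the cause of the controls' higher signal was not tested. Scaling to the poly-A controls, chosen after seeing the data, gave 1 probe set and 1 gene higher and 4 probe sets and 3 genes lower, and turned Maff to -0.0665. The other alternatives left these counts within 1.5 times, at up to 7 probe sets and 5 genes higher, where Fosb joined with the floor at the 40th percentile or with the pseudocount (log2 ratio 1.13). Of 103 member ratios recomputed, 85 moved by less than 0.85 and stayed on their side of 2-fold, 17 did not, and 1 called ratio, that of Maff, changed sign. Of 120 list counts 95 stayed within 1.5 times. List medians relative to all measured genes kept their sign under all 10 alternatives, for the targets at 0.49 to 0.71 and for the MAPK kinases at -0.24 to -0.06. No paired analysis was possible because each population has 1 array.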
